A study of Boechera gunnisoniana with 7 samples.

Results

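Auxin response factors (ARFs) are the DNA-binding transcription factors through which the plant hormone auxin acts on its target genes. The 10 genes described here are *ARF1* (AT1G59750), *ARF2* (AT5G62000), *ARF3* (AT2G33860), *ARF4* (AT5G60450), *ARF5* (AT1G19850), *ARF6* (AT1G30330), *ARF7* (AT5G20730), *ARF8* (AT5G37020), *ARF10* (AT2G28350) and *ARF16* (AT4G30080). They were taken by these *Arabidopsis* gene identifiers, without use of their measured values, and all 10 were found among the 21428 genes of the expression table. Values came from 7 Affymetrix ATH1 arrays hybridized with amplified RNA of *Boechera gunnisoniana*, a triploid relative of *Arabidopsis* that forms seeds by obligate, pseudogamous apomixis (clonal seed formation in which pollination is still required). Cells and tissue were cut from ovule sections of greenhouse plants, for which the labels give no treatment, by laser-assisted microdissection (LAM). Mature female gametophytes, from flowers whose anthers were removed some hours before fixation, gave 1 array for each of their cell types: egg cell, central cell and synergid cells. Younger ovules gave 2 arrays for the apomictic initial cell (AIC), the cell that starts the apomictic germline, and 2 arrays for the sporophytic nucellus tissue around it. Anther removal and developmental stage cannot be told apart between these groups. Each array stands for a pool of many sections. The study allows for a little nucellus tissue in the AIC pools and for some material of adjacent gametophyte cells in the egg, central and synergid cell pools. The probes were designed on *Arabidopsis* transcripts, so a *Boechera* transcript that differs from the probe can give a lower signal. Levels were therefore compared between arrays within a gene only.

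In the auxin pathway as known from *Arabidopsis*, Aux/IAA proteins bind ARFs and recruit TOPLESS corepressors, and auxin relieves this block by joining Aux/IAA proteins to TIR1/AFB F-box receptors, which mark them for degradation. ARF5, ARF6, ARF7 and ARF8 activate transcription, whereas ARF1, ARF2, ARF3, ARF4, ARF10 and ARF16 are regarded as repressors. Small RNAs cut many ARF transcripts: miR167 targets *ARF6* and *ARF8*, miR160 targets *ARF10* and *ARF16*, and trans-acting siRNAs from the *TAS3* transcripts target *ARF2*, *ARF3* and *ARF4*. In *Arabidopsis* ovules, restriction of *ARF3* by these siRNAs limits how many cells become megaspore mother cells, the sexual counterpart of the AIC.

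Values are on a log2 scale, so that 1 unit is a doubling. For each array a background level was set from its own values, as the most frequent gene value plus 3 times the root mean square distance of the genes below it. This level was 4.74 for the egg cell, 5.32 for the central cell and 5.05 for the synergid cells, 4.66 and 4.99 on AIC arrays 1 and 2, and 4.58 and 4.85 on nucellus arrays 1 and 2. A value at or under it is called below background here and only bounds the level from above. The arrays of the central cell and the synergid cells stood highest and had the smallest shares of genes above them. The 18 hybridization control features averaged between 9.25 on AIC array 2 and 12.5 on the synergid cell array, while at most 1 of 27 *Bacillus* control features exceeded the level on any array. Across genes, the 2 AIC arrays had a Pearson's r of 0.907 and the 2 nucellus arrays one of 0.853. Of the cell type markers, the synergid regulator *MYB98* was above background on the synergid cell array only, at 6.61. The egg cell markers *EC1.2* and *EC1.5*, the members of this gene group that the array carries, were below background on all 7 arrays, the egg cell array included. Of the 4 central cell markers, *AGL80* was highest in the central cell (6.60) but above background on all arrays except AIC array 2, with 6.10 in the egg cell and 6.14 in the synergid cells. *FWA* (4.85) and *AGL61* (4.53) were highest in the central cell and *FIS2* in the egg cell (4.16, against 3.81 in the central cell), and these 3 were below background on all arrays. The nucellus markers *WUS* and *SPL* were below background everywhere, and the megaspore mother cell markers of the list were not among the features. Of the 3 integument genes on the array, *INO* stood at 7.14 on nucellus array 1, against 4.41, below background, on nucellus array 2. It was also above background in the egg cell (4.77), and *BEL1* and *ANT* were below background on all arrays.

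Of the 10 *ARF* genes, 5 were above background on the egg cell array, against 31.2% of all genes. The central cell array had 3 *ARF* genes above background (18.5% of all genes) and the synergid cell array 4 (23.8%). AIC array 1 had 4 (32.8%) and AIC array 2 had 7 (26.5%), the highest count. Nucellus arrays 1 and 2 had 4 (34.2%) and 3 (28.5%). *ARF2*, *ARF8* and *ARF10* were above background on all 7 arrays, as were 12.9% of all genes. With the level set at 4 times the distance instead of 3, each of these lost at least 1 array: *ARF2* the central cell, *ARF8* the central cell, AIC array 1 and nucellus array 2, and *ARF10* the synergid cells. *ARF8* was also lost on AIC array 1 with the 75th percentile of the genes as the level and after quantile normalization. *ARF1*, *ARF5* and *ARF16* were above it on none, as were 54.8% of all genes. The remaining members, *ARF3*, *ARF4*, *ARF6* and *ARF7*, were above background on some arrays and below it on others. More transcript per cell and more cells with the transcript cannot be told apart in such pools.

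**Figure D1:**
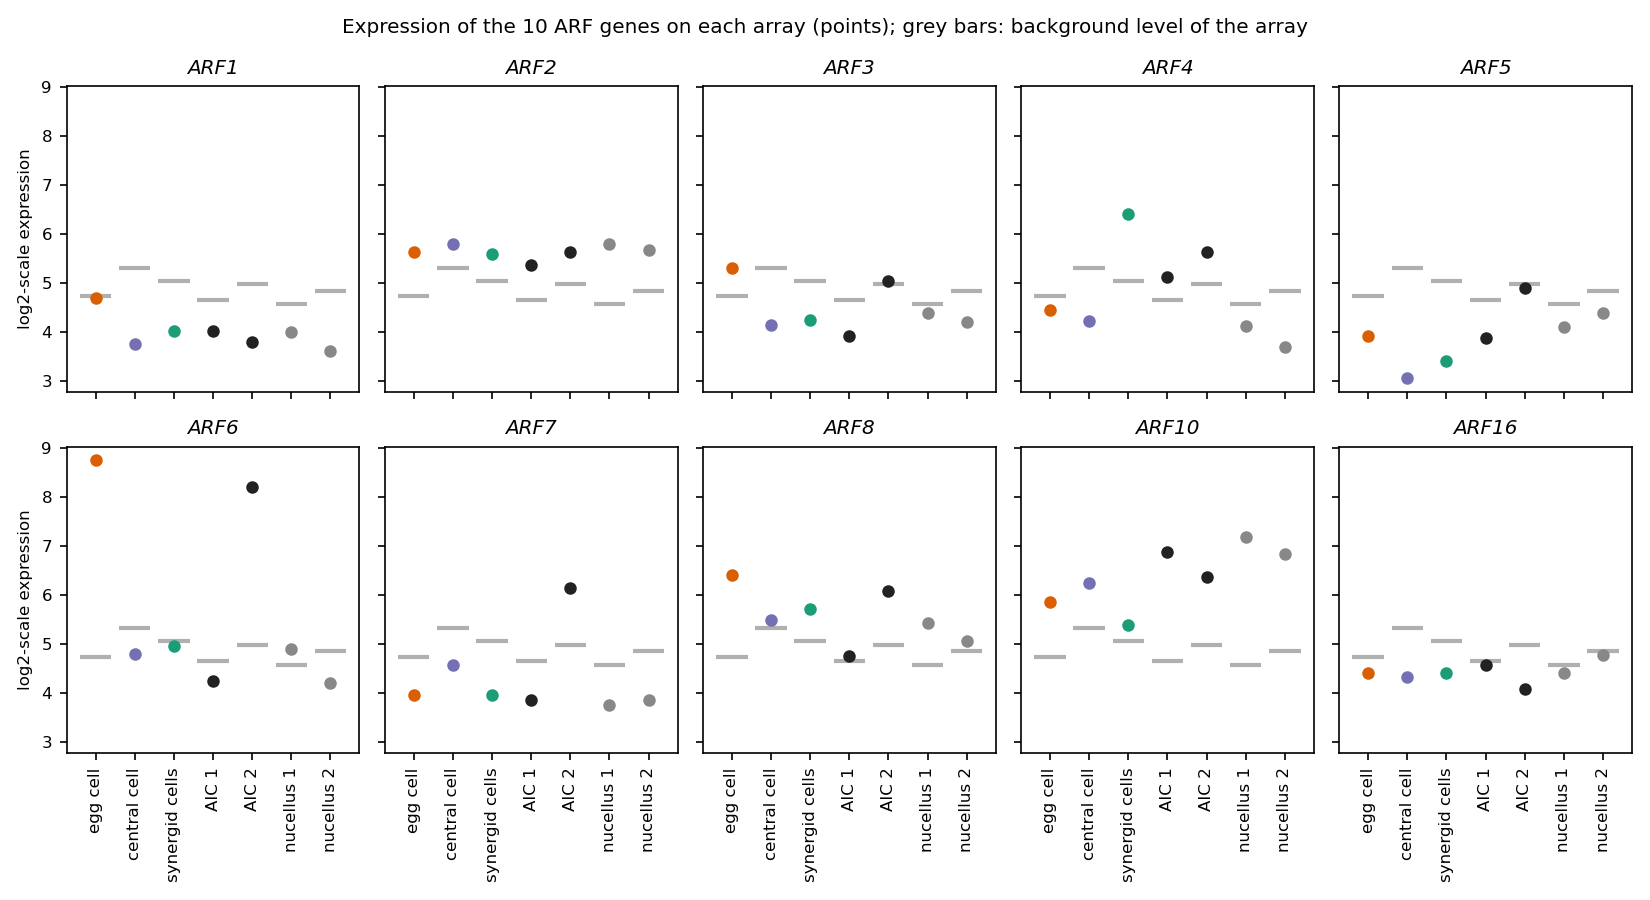
Log2-scale expression (y axis) of each of the 10 *ARF* genes on the 7 arrays (x axis: egg cell, central cell, synergid cells, AIC 1 and 2, nucellus 1 and 2). Each point is 1 array and the grey bar under or over it is the background level of that array. *ARF6* stands far above the bars on the egg cell array (8.74) and AIC array 2 (8.19). *ARF4* is highest on the synergid cell array (6.42), and *ARF10* is above the bars on all 7 arrays.

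*ARF6*, an activator needed for flower maturation together with *ARF8*, had the widest range of the members, 4.55 log2 units. Its value was 8.74 in the egg cell, 4.80 in the central cell and 4.96 in the synergid cells, 4.25 and 8.19 on AIC arrays 1 and 2, and 4.90 and 4.20 on nucellus arrays 1 and 2. The egg cell array and AIC array 2 were thus high and the other 5 arrays low, of which nucellus array 1 alone was above background. By group means of the values as deposited, the order ran from the egg cell through the AIC (6.22 ± 2.79, SD, n = 2), the synergid cells and the central cell to the nucellus (4.55 ± 0.50, SD, n = 2). The values of the synergid cells, the central cell and nucellus array 2 were below background, so the order of these groups was not measured. The AIC arrays enclosed the values of the synergid cells, the central cell and nucellus array 1, and the nucellus arrays enclosed that of the central cell, so these neighbours did not differ beyond their spread. The egg cell value lay above both AIC arrays but comes from 1 array.

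*ARF8*, the closest relative of *ARF6*, had its highest values on the same 2 arrays, over a smaller range of 1.66 log2 units. It was measured at 6.41 in the egg cell, 5.48 in the central cell and 5.71 in the synergid cells, at 4.75 and 6.09 on AIC arrays 1 and 2, and at 5.43 and 5.06 on nucellus arrays 1 and 2. All of these were above background, AIC array 1 by 0.10 only. The egg cell array was again highest and AIC array 2 next, and the AIC arrays (5.42 ± 0.94, SD, n = 2) enclosed all other values but that of the egg cell.

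*ARF7*, an activator of tropic growth and lateral root formation, was above background on AIC array 2 alone, with 6.15 there and 3.85 on AIC array 1. On the egg, central and synergid cell arrays it had 3.96, 4.58 and 3.97, and on the nucellus arrays 3.75 and 3.86, all below background. *ARF5* (*MONOPTEROS*), which is required for embryo patterning, did not reach the level on any array. It came nearest on AIC array 2, with 4.90, and had 3.89 on AIC array 1, 3.93, 3.06 and 3.41 in the egg, central and synergid cells and 4.10 and 4.39 in the nucellus. All values of *ARF5* were thus below background and give no measured difference between arrays.

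Among the targets of trans-acting siRNAs, *ARF3* (*ETTIN*), a regulator of carpel patterning that lacks the domain for pairing with Aux/IAA proteins, was above background in the egg cell (5.31) and on AIC array 2 (5.06). Its other values were 4.15 in the central cell, 4.25 in the synergid cells, 3.93 on AIC array 1 and 4.40 and 4.22 in the nucellus. Set against the lowest value above background on each nucellus array, *ARF3* was at least 1.51-fold higher in the egg cell than in the nucellus, without replication of the egg cell. The AIC mean of 4.50 ± 0.80 (SD, n = 2) gave no such bound. On AIC array 2, *ARF3* exceeded the level by 0.07 only. It was lost there at 4 times the distance and with the 75th percentile of the genes as the level. Its highest values were on the same arrays as those of *ARF6* and *ARF8*, the egg cell array and AIC array 2.

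*ARF4*, which acts with *ARF3* in organ polarity, had another pattern. It was measured at 6.42 in the synergid cells and 5.12 and 5.64 in the AIC, whereas the values of egg cell (4.45), central cell (4.24) and nucellus (4.13 and 3.71) were below background. Synergid cells and both AIC arrays were thus high, and the AIC and nucellus arrays did not overlap. Computed in the same way, *ARF4* was at least 3.26-fold higher in the synergid cells and at least 1.59-fold higher in the AIC than in the nucellus. It was at least 1.57-fold lower in the egg cell than in the AIC, and at least 1.04-fold lower in the central cell than in the AIC. These bounds rest on the level at 3 times the distance and were not computed at other levels. *ARF2*, a repressor that limits organ growth and promotes ageing, varied least of all members. Its values were 5.63 in the egg cell, 5.80 in the central cell and 5.60 in the synergid cells, 5.37 and 5.63 in the AIC and 5.80 and 5.68 in the nucellus. The range was 0.43 log2 units, and AIC array 2 and the egg cell array held exactly the same value.

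*ARF10*, whose *Arabidopsis* transcript is cut through miR160, was above background on every array and highest in the younger ovules. It was measured at 5.85 in the egg cell, 6.24 in the central cell and 5.39 in the synergid cells, against 6.88 and 6.37 in the AIC and 7.18 and 6.83 in the nucellus. Each of the 3 gametophyte arrays was below each of the 4 younger arrays. The order of groups was nucellus (7.01 ± 0.25, SD, n = 2), AIC (6.63 ± 0.36, SD, n = 2), central cell, egg cell and synergid cells. The AIC and nucellus arrays overlapped, and the central cell (6.24) lay just under AIC array 2 (6.37). *ARF16*, which acts with *ARF10* in the root cap, stayed below background on all 7 arrays, between 4.08 on AIC array 2 and 4.78 on nucellus array 2. It had exactly the same value, 4.42, on the egg cell, synergid cell and nucellus 1 arrays. *ARF1*, a repressor that overlaps in function with *ARF2*, was also below background throughout. It lay between 3.63 and 4.71, and its highest value, in the egg cell, was 0.03 short of the level.

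Between both AIC arrays, several members differed further than most genes did. *ARF6* was at least 3.54 log2 units higher on AIC array 2 than on AIC array 1, where it was below background and was set to the lowest value above it. By bounds computed in this way, 28 of all genes (0.131%) differed at least as far in either direction. *ARF7*, also below background on AIC array 1, was at least 1.497 higher (2.08% of genes at least as far). *ARF8* was above background on both arrays, on AIC array 1 by 0.10 only, and was 1.33 higher on AIC array 2 (2.69%). These 3 of the 10 members had differences or bounds over 1 log2 unit, against 2.16% of all genes for AIC array 2 over AIC array 1. *ARF3* was at least 0.40 higher, and *ARF4* and *ARF2*, above background on both arrays, were 0.52 and 0.26 higher. *ARF10* differed by -0.51, array 2 minus array 1. *ARF1*, *ARF5* and *ARF16* were below background on both arrays. Between the nucellus arrays the values of *ARF6* lay furthest apart, 4.90 on array 1 and 4.20 on array 2, the last of these below background.

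**Figure D2:**
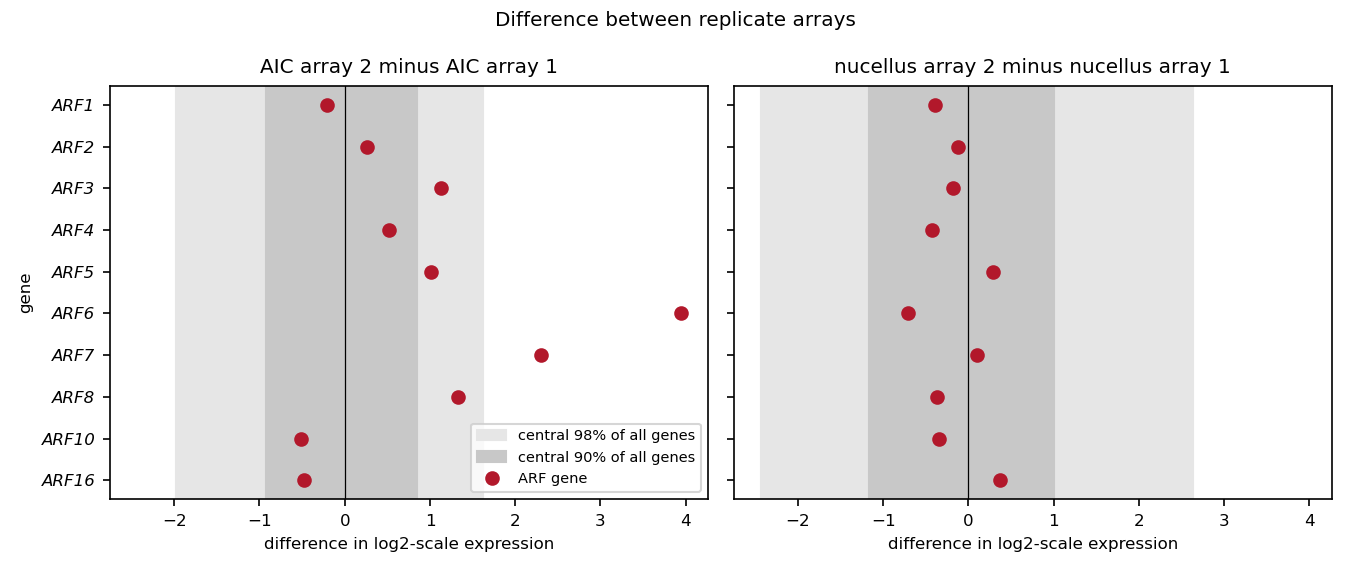
Difference in log2-scale expression (x axis) of each *ARF* gene (y axis, points) between array 2 and array 1 of the AIC (left) and of the nucellus (right). Values are plotted as deposited, including those below background, which for *ARF3*, *ARF6* and *ARF7* is the value on AIC array 1 and for *ARF1*, *ARF5* and *ARF16* are both AIC values. Shaded bands hold the central 90% and 98% of all genes, from -0.92 to 0.84 and from -1.98 to 1.63 for the AIC, and from -1.17 to 1.00 and from -2.43 to 2.64 for the nucellus. *ARF6* and *ARF7* lie beyond both bands in the AIC panel, *ARF8*, *ARF3* and *ARF5* lie between the bands, and all points are within the inner band in the nucellus panel.

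*ARF3*, *ARF6* and *ARF8* were higher on both the egg cell array and AIC array 2 than on any of the other 5 arrays, as were 4.32% of all genes. This pattern was looked for after the values had been seen. For *ARF6* the gap between the lower of these 2 arrays and the highest of the others was at least 2.87 log2 units, with values below background set to the lowest value above it on their array. Computed in this way, it was the widest gap of all 21428 genes. The gap was 0.38 for *ARF8*, and *ARF3* gave no bound above 0. Pearson's r over the 7 arrays was 0.97 between *ARF3* and *ARF6*, 0.90 between *ARF6* and *ARF8* and 0.91 between *ARF3* and *ARF8*. Without AIC array 2 and the egg cell array it was 0.62, 0.92 and 0.69 over 5 arrays, which share the hybridization platform and include values below background. These coefficients describe the arrays, and cross-hybridization between related *ARF* transcripts was not tested. Across all genes the egg cell array correlated with AIC array 2 at an r of 0.879 and with AIC array 1 at 0.843. The egg cell markers *EC1.2* and *EC1.5* had 2.85 and 2.96 on AIC array 2, against 3.01 and 2.96 on AIC array 1, all below background. They were also below background on the egg cell array (3.02 and 2.74), so they cannot show whether an array holds egg cell material. AIC array 2 also had the lowest hybridization controls and, by the level used here, a smaller share of genes above background than AIC array 1. The study's own presence calls gave slightly more genes on AIC array 2 than on AIC array 1. The part of these points in the result was not tested.

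The AIC was compared with the nucellus, its surrounding tissue, with limma on all 7 arrays. At an adjusted p of 0.05, 0.00% of the genes and none of the members were called, with 819 genes at an unadjusted p under 0.05. *ARF4* had the lowest unadjusted p of the members. Its values averaged 5.38 ± 0.37 in the AIC and 3.92 ± 0.30 in the nucellus (SD, n = 2 each), where both were below background, so that the measured difference is the bound of 0.67 log2 units (1.59-fold). The values as deposited gave a log2 difference of 1.47 with a standard error of 0.28 (limma, unadjusted p = 0.0108, adjusted p = 0.938). It remained between 1.21 and 1.73 when any of the 4 arrays was left out. *ARF6*, below background on AIC array 1 and nucellus array 2, had a difference of 1.67 with a standard error of 1.57 (limma, adjusted p = 0.938), and the difference was -0.30 without AIC array 2 and 3.64 without AIC array 1. *ARF7*, above background on AIC array 2 only, had a difference of 1.198 ± 0.905 (standard error), which was 0.05 without that array. Both AIC arrays were above both nucellus arrays for 1 of 10 members, *ARF4*, as for 12.7% of all genes. Both AIC arrays were below both nucellus arrays for 1 member, *ARF2*, as for 14.3% of all genes, with a log2 difference of -0.24 ± 0.15 (standard error). The members' median difference was 0.16, against -0.01 for all genes. Neither count of members stands apart from the share over all genes.

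Set against the AIC and nucellus arrays combined, the arrays of the mature gametophyte had lower values of *ARF10*. The mean was 5.83 ± 0.43 on the 3 gametophyte arrays (SD, n = 3), which are 3 different cell types. It was 6.82 ± 0.33 on the 4 younger arrays (SD, n = 4), which are 2 arrays for each of 2 groups. The log2 difference from limma was -0.99 with a standard error of 0.20. This error rests on the scatter within the AIC and nucellus pairs and assumes that the gametophyte arrays vary likewise. The spread among the 3 gametophyte cell types does not enter it. The adjusted p from limma was 0.170 (unadjusted 0.0127), and a two-sided exact permutation test over the 7 arrays gave p = 0.0571, the smallest that its 35 orders can give. This p follows from the lack of overlap in *ARF10* and is no separate result. The test takes arrays of different cell types as exchangeable, and it gave the other members p from 0.114 to 0.914. All members missed the threshold, as 0.00% of the genes were called in this comparison, with 4240 genes at an unadjusted p under 0.05. Gametophyte arrays were all below the younger arrays for 1 member, *ARF10*, as for 3.97% of all genes, and all above them for 0 members, as for 7.0% of all genes. The order without overlap in *ARF10* was not kept after quantile normalization of the arrays, where its difference was -0.63. The gametophyte arrays had background levels of 4.74 to 5.32 and the younger arrays of 4.58 to 4.99, and the part of this in the result was not tested. *ARF6* had a difference of 0.78 with a standard error of 1.199, and *ARF8* one of 0.53 with a standard error of 0.42. The median difference was 0.11 for the members and 0.05 for all genes.

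**Figure D3:**
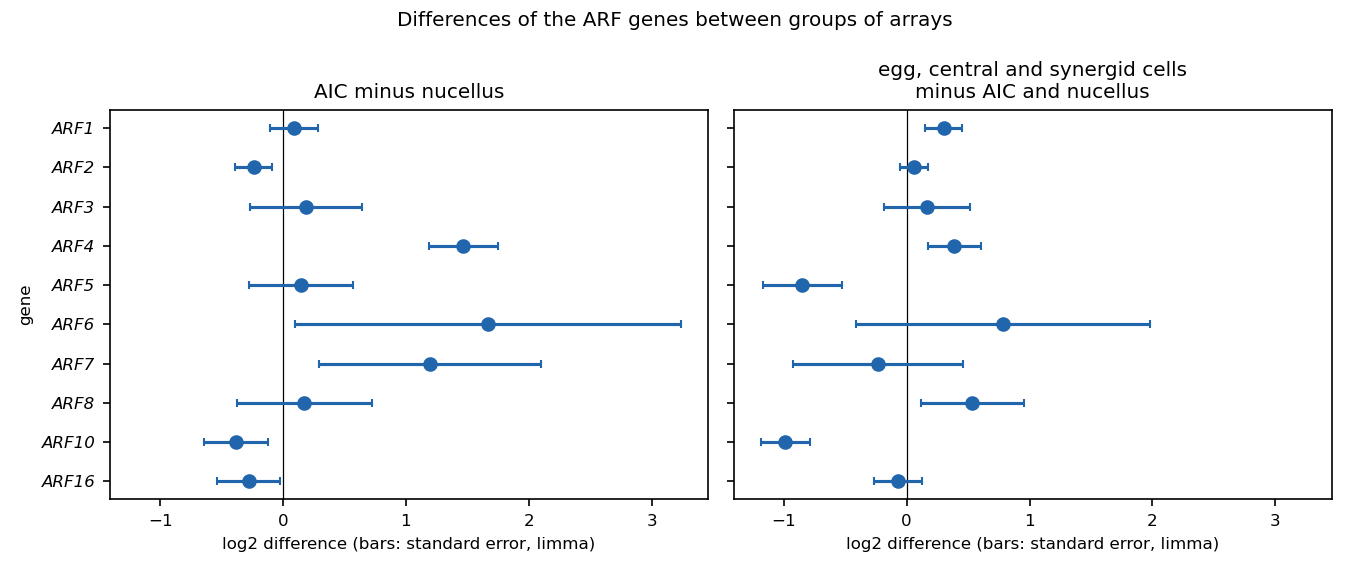
Log2 difference (x axis) of each *ARF* gene (y axis) between the AIC and the nucellus (left) and between the egg, central and synergid cells and the AIC and nucellus (right). Points are limma estimates over the 7 arrays and bars are standard errors. Values below background enter as deposited, such as those of *ARF4* in the nucellus. *ARF4* (1.47 ± 0.28) stands clear of 0 in the left panel and *ARF10* (-0.99 ± 0.20) in the right panel, and the bars of *ARF6* are the widest in both. *ARF1*, *ARF5* and *ARF16* were below background on all arrays.

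Each gametophyte cell type was also compared with the AIC, with 1 array per cell type that is assumed to vary like the AIC and nucellus pairs. Limma called 0.00% of the genes for the egg cell, 0.00% for the central cell and 0.00% for the synergid cells, with 2146, 3879 and 3213 genes at an unadjusted p under 0.05. In the egg cell, *ARF6* was 2.52 log2 units above the AIC mean with a standard error of 1.92, and *ARF8* 0.99 with one of 0.67. *ARF4* was below background in the egg cell and in the central cell, so that only the bounds of 1.57-fold and 1.04-fold lower than in the AIC are given. In the synergid cells, *ARF10* differed by -1.23 with a standard error of 0.32 (limma, adjusted p = 0.284) and *ARF4* by 1.04 with one of 0.34 (limma, adjusted p = 0.333). None of these differences passed the threshold. The comparisons share the AIC arrays.

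For the 2 members with the widest ranges, *ARF6* and *ARF4*, genes with the most similar course over the 7 arrays were sought. Candidates were above background on at least 2 arrays and had a range at least as wide. For *ARF6* 222 genes qualified, and the highest Pearson's r was that of AT5G44680 (0.966), followed by AT1G09340 (0.966) and AT4G37550 (0.935). AT5G44680 had 8.78 in the egg cell and 6.47 on AIC array 2, against 3.13 on AIC array 1. AT1G09340 had 8.74, 6.89 and 4.03 on these arrays. For *ARF4* 1409 genes qualified, led by AT5G04810 (0.971), AT3G63250 (0.939) and AT4G19410 (0.938). AT5G04810 had 7.42 in the synergid cells and 6.34 and 6.75 in the AIC, against 4.67 and 3.67 in the nucellus. With 7 arrays and so many candidates, such values are a description only.

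Further *ARF* genes were mostly below background. Of 13 others listed, 9 were on the array. Of these 9, 7 (*ARF9*, *ARF11*, *ARF13*, *ARF17*, *ARF19*, *ARF21* and *ARF23*) were below background on all arrays, against 54.8% of all genes. *ARF12* was above background on all 7 arrays, with 7.79 in the central cell and between 5.94 and 6.52 on the others, but it belongs to a cluster of near-identical genes, so that its signal is uncertain. *ARF18* was between 4.70 and 5.49. *ARF19*, the closest relative of *ARF7*, thus did not share its value above background on AIC array 2. By the values as deposited, none of the 9 differed by more than 1 log2 unit between the AIC arrays. Of all genes, 3.39% were that much higher on AIC array 2 and 4.44% that much lower.

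Of the partners of ARFs, the auxin receptors *TIR1*, *AFB2*, *AFB3* and *AFB5* were higher on both AIC arrays than on both nucellus arrays, 4 of 6 receptors on the array, against 12.7% of all genes. *AFB5* was below background on all 4 of these arrays. *AFB2* had 5.340 and 5.011 in the AIC, against 4.836 and 4.999 in the nucellus, so that its nearest arrays were almost equal. *TIR1* had 6.01 and 6.01 in the AIC, against 5.79 and 5.17 in the nucellus. *AFB3* had 5.07 and 4.35 in the AIC, against 4.20 and 4.10 in the nucellus, and was above background on AIC array 1 only. The receptors' median log2 difference was 0.42. None passed the threshold of limma, as 0.00% of all genes were called. Of 28 *Aux/IAA* repressor genes, 17 were below background on all arrays (54.8% of all genes). The AIC was above the nucellus without overlap for 3 (12.7% of all genes) and below it for 3 (14.3%). Above background on all arrays were 4 (12.9% of all genes), *IAA7*, *IAA8*, *IAA9* and *IAA19*. *IAA12* and *IAA30* of the higher and *IAA4* and *IAA28* of the lower ones were below background throughout. Of the 28 genes, 3 were over 1 log2 unit higher on AIC array 2 than on AIC array 1, against 3.39% of all genes by the values as deposited. *IAA16* had 7.35 against 3.51 (below background), *IAA8* 10.6 against 8.45 and *IAA27* 7.84 against 5.68. Their nucellus values were 5.49 and 6.55 for *IAA16*, 9.59 and 9.61 for *IAA8*, and 6.59 and 4.97 for *IAA27*.

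The TOPLESS corepressor gene *TPR4* had 9.61 in the egg cell, 6.76 in the central cell and 6.62 in the synergid cells, against 6.77 and 6.69 in the AIC and 5.86 and 6.08 in the nucellus. *TPR4* and *ARF6* thus both had their highest value in the egg cell, but *TPR4* differed by 0.08 only between the AIC arrays. *TPL* was above background in the egg cell alone (5.44). *AGO1*, whose protein carries miR160 and miR167, was above background on every array, with 9.17 in the egg cell, 6.47 in the central cell and 7.76 in the synergid cells, against 8.21 and 8.14 in the AIC and 8.07 and 7.28 in the nucellus. Of the 5 genes that make the trans-acting siRNAs, *DCL4* and *RDR6* were above background on all 7 arrays, as were 12.9% of all genes. *DRB4* was above it on some, and *SGS3* and *AGO7* on none, against 54.8% of all genes. Of the 6 microRNA pathway genes, *AGO1* and *HST* were above background on all 7 arrays. *SE* was above it in the egg cell alone, and *DCL1*, *HYL1* and *HEN1* on none. *DCL4* was between 5.64 on AIC array 1 and 7.46 in the central cell. Limma called 0.00% of all genes in each comparison, and so none of the 6 microRNA and 5 trans-acting siRNA pathway genes.

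**Figure D4:**
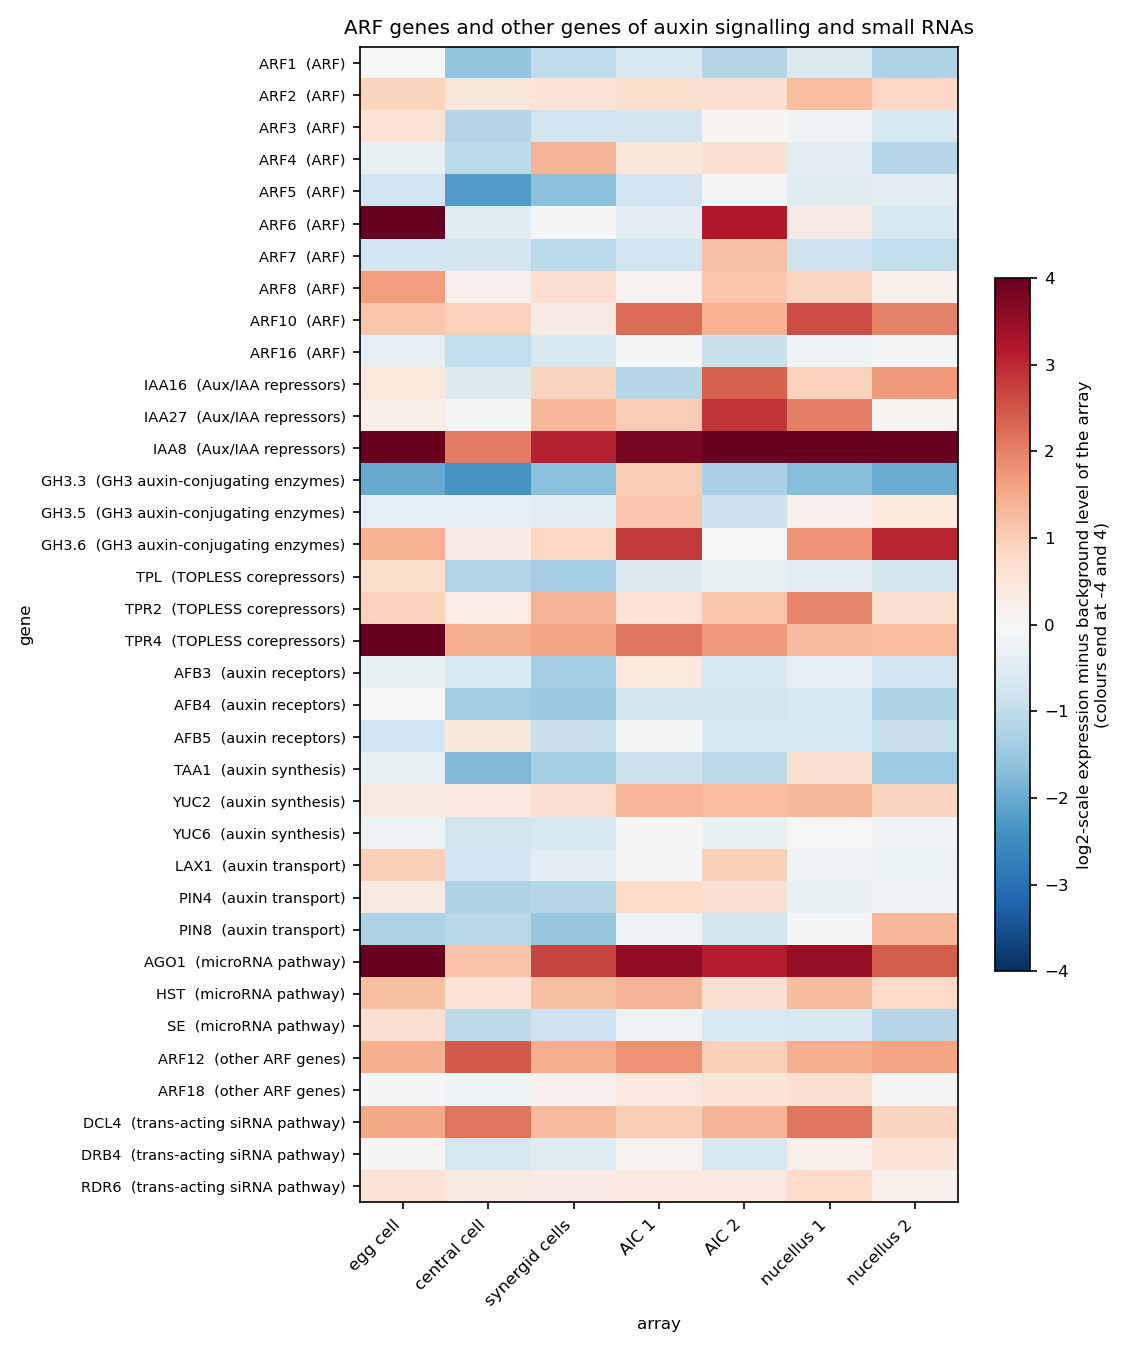
Log2-scale expression minus the background level of the array (colour) for the 10 *ARF* genes and other genes of auxin signalling and small RNA pathways (y axis) on the 7 arrays (x axis). Red is above and blue below background, colours end at -4 and 4, and rows are to be read from left to right, not against each other. *ARF6* is dark red on the egg cell array and AIC array 2, *IAA16* and *IAA27* are darkest on AIC array 2, and *GH3.3* is red on AIC array 1 only.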

How the data were processed

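The deposited table holds expression on a log2 scale for 21492 features per array, named by *Arabidopsis* gene, of which 64 Affymetrix controls were left out of all counts. The methods name probe sets regrouped by gene (brainarray TAIRG, version 14) for presence calls and RMA for heatmap values. How the table itself was normalized: not given in the sources used here, and no step was added. Groups and replicate numbers were taken from the labels. Arrays have no read depth, and their number limits the precision.

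The 10 members and all gene lists were chosen with earlier results of these data known. Symbols beyond the members are standard *Arabidopsis* names written for this work. Named genes were all members, up to 3 genes per list with the widest range among those above background on any array, and the genes most like the 2 members of widest range. Receptors, markers and other genes named beside them were chosen after their values were seen.

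Limma 3.58.1 (lmFit and eBayes, R 4.3.3) fitted 5 group means to all 7 arrays, leaving 2 residual degrees of freedom (prior 1.28), with Benjamini-Hochberg adjustment over 21428 genes at 0.05. It was tested on simulated data. A bound ("at least") sets the mean of the brighter group against, per array of the dimmer group, the higher of its own value and the lowest gene value above background. All bounds used the level at 3 times the distance and would change with another level. Exact permutation tests used scipy 1.17.1, and the rest Python 3.11.15 with pandas 2.3.3, numpy 2.4.6 and matplotlib 3.10.9. Alternatives were quantile normalization, centring each array on its median, a filter on genes above background on at least 2 arrays, a trended prior, the replicate block, a fit on the AIC and nucellus arrays by themselves, other background levels and arrays left out. Leaving out the central or the synergid cell array was added after seeing the data.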

Additional observations from a re-analysis of the deposited data

How the results depend on the processing

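Limma counts of called genes were 0 in 51 of 52 alternatives, and quantile normalization gave 3 for the egg cell against the AIC. With any 1 AIC or nucellus array left out, limma called 0 genes in each comparison. The median over all genes of the central cell against AIC difference was 0.07 as deposited and -0.08 after centring, the only such shift over 0.1 between these scalings. The study's sources do not say that replicate numbers pair samples, and the differences between replicates of the AIC and of the nucellus had a Pearson's r of 0.0314 across genes. With the replicate block limma called 0 genes in every comparison (869 at an unadjusted p under 0.05 for the AIC against the nucellus, 819 without it).

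Counts of members above background differed in 19 of 28 alternatives, in 15 of these by 1 member. They moved by over 1.5 times in 2, to 8 on the egg cell array at 2 times the distance and to 1 on the central cell array at 4 times. Members without overlap moved more often. AIC above nucellus gave 2 after quantile normalization and 2 after centring (*ARF4* and *ARF7*), and from 2 to 6 members when 1 array was dropped. AIC below nucellus then gave from 2 to 4. Gametophyte above the younger arrays gave from 0 to 2 in the same way and 1 without the central cell array (*ARF1*). Gametophyte below the younger arrays gave 0 after quantile normalization and from 1 to 2 when 1 array was dropped. Groups of 1 array overlap less by construction, and otherwise the cause was not tested.

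Of 202 alternative values of member differences, 17 turned their sign and the rest kept both their sign and their side of the threshold. For gametophyte against younger arrays, *ARF2* turned to -0.0204 after centring and to -0.00497 without the central cell array, *ARF4* to -0.31 without the synergid cell array, and *ARF7* to 0.37 with the replicate block. With an AIC or nucellus array left out, the AIC against nucellus difference lay between -0.10 and 0.28 for *ARF1*, -0.38 and 0.75 for *ARF3*, -0.36 and 0.65 for *ARF5*, -0.30 and 3.64 for *ARF6* and -0.49 and 0.84 for *ARF8*. The gametophyte difference lay between -0.0077 and 0.12 for *ARF2*, -0.11 and 0.45 for *ARF3*, -0.20 and 1.77 for *ARF6*, -0.81 and 0.34 for *ARF7* and -0.19 and 0.048 for *ARF16*. The adjusted p of *ARF4* in the AIC against nucellus comparison was between 0.513 and 0.988 over its alternatives, and that of *ARF10* in the gametophyte comparison between 0.183 and 0.330. The values of *ARF1*, *ARF5* and *ARF16* among these were below background on all arrays. The cause of these turns was not tested.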

Other observations

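Genes for auxin conjugation, transport and synthesis lay outside the comparisons of ARF partners. Of 5 *GH3* genes on the array, which code for enzymes that join auxin to amino acids and are known as early auxin-induced genes, 3 were over 1 log2 unit lower on AIC array 2 than on AIC array 1, against 4.44% of all genes by the values as deposited. *GH3.3* had 3.69 on AIC array 2 and 5.68 on AIC array 1, and was below background on all arrays but AIC array 1. *GH3.5* had 4.13, below background, and 5.73 on these arrays and *GH3.6* 4.99 and 7.44. The direction was opposite to that of *ARF6* and *ARF7*, and the relation between them was not tested. *GH3.6* had 6.36 and 7.88 in the nucellus.

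Of 12 auxin transport genes, the AIC was above the nucellus without overlap for 3, *PIN4*, *AUX1* and *LAX1* (12.7% of all genes). It was below the nucellus for 3, *PIN2*, *PIN5* and *PIN8* (14.3%). The efflux carrier gene *PIN4* was above background on both AIC arrays (5.40 and 5.63) and in the egg cell (5.09). In the nucellus it had 4.27 and 4.71, both below background. The influx carrier gene *LAX1* was above background in the egg cell (5.68) and on AIC array 2 (5.93), as *ARF3* was. It had 4.603 on AIC array 1 and 4.409 and 4.588 in the nucellus, all below background, so that its nearest arrays were almost equal. *PIN8* was above background on nucellus array 2 alone (6.18). Of 14 auxin synthesis genes 11 were below background on all arrays, against 54.8% of all genes. *YUC2* was above it on all 7 arrays, with 5.08, 5.72 and 5.72 in the egg, central and synergid cells, against 5.98 and 6.22 in the AIC and 5.88 and 5.73 in the nucellus. *TAA1* was above it on nucellus array 1 alone (5.23). Limma called 0 of these genes in each comparison, as it called 0.00% of all genes.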
